A study of Oryza sativa with 36 samples.

Results

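The expression of 6 genes of the light reactions and of carbon fixation was followed by its array signal in leaf and root of 3 rice genotypes. The genes were PSAG (LOC4337812) and PSAH (LOC4339593), LHCP (LOC4333359), rcaA1 (LOC4351224), rbcS (LOC4351966) and RBCS-A (RBCS1), 6 of 17960 annotated genes. They were chosen by name, with earlier results of these data known, and every probe set annotated to them was taken, which gave 18 of 57194 probe sets. Of these, 13 were tied to 1 of the genes alone, namely 2 for PSAG, 1 each for PSAH, LHCP and RBCS-A, and 4 each for rcaA1 and rbcS. The other 5 were shared by RBCS-A and the neighbouring loci LOC4352016 and LOC4352021, so their values belong to no single gene and are given as those of shared small subunit probe sets.

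Light drives photosynthesis through photosystems in the chloroplast membrane, whose antenna proteins bind chlorophyll and pass the captured energy on. LHCP encodes such a chlorophyll a/b-binding antenna protein, and PSAG and PSAH encode small subunits of photosystem I. Rubisco fixes carbon dioxide and is the most abundant protein of leaves; its small subunit comes from a nuclear gene family to which rbcS and RBCS-A belong, and rcaA1 encodes Rubisco activase, which keeps the enzyme in its active form. These proteins hold a large share of leaf nitrogen.

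The 36 arrays fell into 12 groups of 3, each a combination of genotype, tissue and nutrient supply. The labels name the genotypes as cultivars; as background, LYP9 is a hybrid rice whose parents are 9311 and PA64s. Per the labels, all seedlings shared 5 days in a nutrient soil mix and were then planted in poor soil, 15 seedlings of each variety in each of 12 barrels. The nutrient-sufficient (heterotic, in the labels' other wording) groups came from 6 barrels given 10 g urea and 10 g compound fertiliser at 14 days of age, and the nutrient-deficient (non-heterotic) groups from the barrels left without. It is not stated if replicates are separate barrels, separate plants or repeats of 1 extract, so the p-values measure only the spread between these samples, which may be technical. In whole leaf or root, fewer cells of a type and less RNA per cell cannot be told apart.

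Values are log2 of the deposited array intensity, and a difference of 1 on this scale is a doubling. The median intensity per array lay between 66.9 and 75.4 units for leaf and between 66.0 and 74.5 units for root. A list of 10 root genes (Lsi1, Lsi2, CASP1, SHR1, Pht1;2, PT6, HAK1, IRT1, YSL15 and AMT1;2), summarised by mean log2 level, had group values of 6.14 to 6.32 in leaf against 9.04 to 9.94 in root. For 2 further antenna genes they were 13.6 to 14.0 in leaf against 5.96 to 7.40 in root. Both lists followed the tissue labels. Probe sets among the upper 60% by mean log2 value in a tissue were tested, 34316 in each. Of the 18 probe sets described here, 16 passed in leaf and 8 in root. The 2 that missed in leaf were the one tied to RBCS-A alone (Os.37819.1.S1_at), at 7.23 to 20.0 intensity units over the 18 leaf arrays, and the shared set Os.40411.1.A1_x_at, at 17.0 to 31.2. RBCS-A by itself was therefore not measured above the dim range in any group.

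In leaf 13 of the 18 probe sets, those of PSAH, LHCP and rcaA1, 3 of rbcS and 4 shared ones, ranked among the 1576 brightest of the array on each of the 18 leaf arrays. Both PSAG sets, the rbcS set Os.49262.1.A1_x_at, the RBCS-A set and the shared set Os.40411.1.A1_x_at ranked lower on some or all of them. The 8 probe sets that passed the filter in both tissues were higher in leaf than in root (limma, adjusted p under 0.05), where 81.4% of all probe sets tested differed between the tissues and 43.9% were higher in leaf. Their differences ran from 2.0 ± 0.10 on the log2 scale (SE, adjusted p = 1.19e-17) for the PSAG set Os.11860.1.S2_at to 7.94 for LHCP, with a median of 7.14. A further 7 lay below the filter level in root and passed over the 36 arrays through leaf, where they are bright, so their calls as higher in leaf support nothing. Among them PSAH averaged 13.2 in leaf against 5.25 in root, and the rcaA1 set Os.11573.2.A2_a_at 13.2 in leaf against 4.53 in root. Against the root filter level of 5.70 in place of these dim root values, their leaf means were 7.50 and 7.49 higher.

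**Figure D1:**
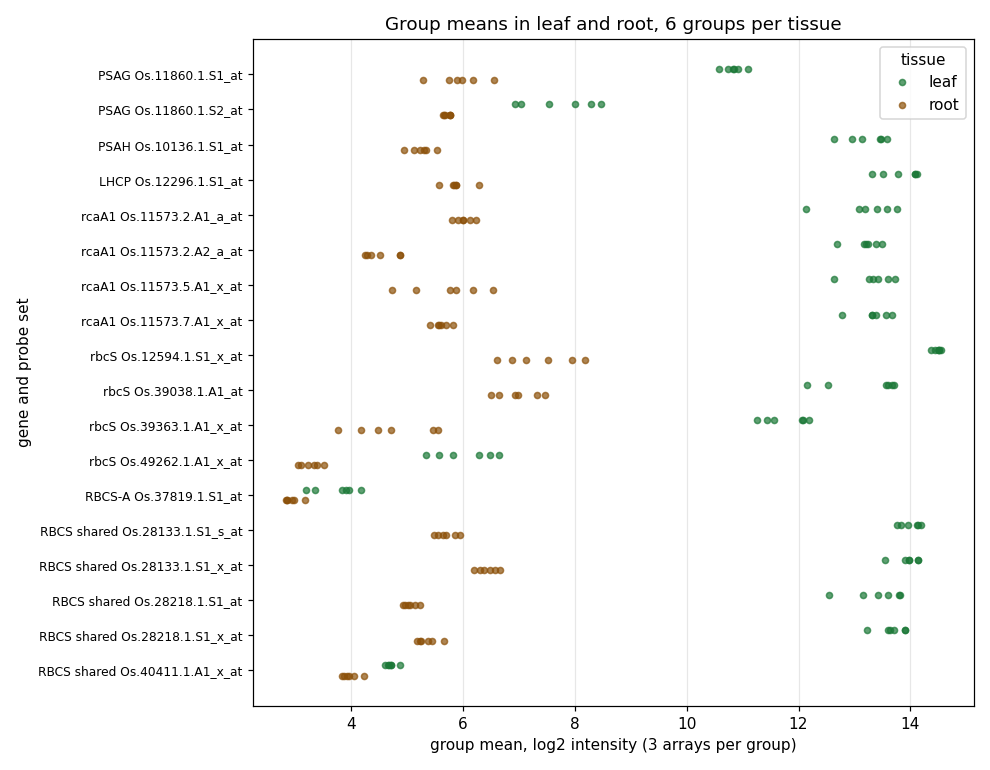
Group means of the 18 probe sets, in log2 intensity (horizontal axis), with one point for each of the 6 leaf groups (green, upper line of each pair) and the 6 root groups (brown, lower line), 3 arrays per group. The leaf points of the 8 probe sets that passed the filter in both tissues lie to the right of the root points by 2.0 to 7.94 on average, while the RBCS-A set and the shared set Os.40411.1.A1_x_at lie at the dim end in both tissues.

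The brightest probe set, Os.12594.1.S1_x_at of rbcS, had 19762 to 24461 intensity units over the 18 leaf arrays, where the highest value of any probe set on an array was 20600 to 24461. It thus sat at the top of the measured range, and its leaf group means lay within 0.17 of each other on the log2 scale. Probe sets of rbcS, rcaA1 and PSAG did not always move together, so each result below names its probe set. In the array maker's naming, sets ending in _s_at or _x_at hold probes that also match other transcripts.

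Probe sets of PSAG, PSAH, LHCP, rbcS and the shared small subunit passed the test as rises in nutrient-sufficient leaves. More of these calls fell in 9311 and PA64s than in LYP9. The rcaA1 sets were higher with nutrients too, in each genotype, but none passed the test. Differences lay above 0 for all 16 probe sets tested in each parent and for 15 of 16 in LYP9. The median over all probe sets lay above 0 too, and the share of all that lay above 0 is not given here. Under alternative processing the signs of some small subunit sets turned, as described below. In the counts below, a rise is one that passed the test. In 9311 leaves 9 of the 16 probe sets tested rose in the nutrient-sufficient state and none fell, where 7.96% of all probe sets rose and 3.97% fell. In PA64s leaves 4 of 16 rose (5.01% of all probe sets rose), and in LYP9 leaves 1 of 16, a share near that of all probe sets (6.2% rose). One of the 16, the rbcS set Os.49262.1.A1_x_at, lay below the filter level in the deficient leaves of both parents and passed through the groups where it is higher. The other 15 gave 8 calls in 9311, 1 in LYP9 and 4 in PA64s. Probe sets are not separate genes: the calls in 9311 include 4 shared small subunit sets that read the same 3 loci, and more than 1 set of rbcS. The median difference over the 16 was 0.39 in 9311, 0.29 in LYP9 and 0.57 in PA64s, against 0.06, 0.07 and 0.07 over all probe sets tested. After quantile normalization these medians were 0.20, 0.19 and 0.37, against -0.03, -0.03 and -0.01 over all probe sets, and the calls 5 in 9311, 0 in LYP9 and 3 in PA64s. With all 36 arrays in 1 fit the calls were 4 in 9311 and 2 in LYP9. Of all calls in 9311 leaf 66.7% were rises, and 55.7% after median centring or 47.9% after quantile normalization; the shares were 70.04%, 55.9% and 45.8% in LYP9 and 64.9%, 49.7% and 46.1% in PA64s.

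PSAH, one of the photosystem I subunits, had log2 values of 13.57, 13.56 and 13.62 in nutrient-sufficient 9311 leaves against 12.88, 13.09 and 12.89 in deficient ones. In PA64s leaves it had 13.27, 13.47 and 13.65 in the sufficient state against 12.28, 12.85 and 12.75 in the deficient state. The states did not overlap in either parent. The difference was 0.63 ± 0.17 in 9311 (SE, limma adjusted p = 0.0258), a 1.55-fold rise, and 0.83 ± 0.17 in PA64s (adjusted p = 0.00807), a 1.78-fold rise. The 9311 call was lost without any 1 sufficient array or deficient array 1 or 3, with differences of 0.60 to 0.70, and at 0.45 after quantile normalization and 0.56 after median centring (adjusted p = 0.0621 and 0.0568). The PA64s call held with any 1 array left out. In LYP9 leaves PSAH had 13.42, 13.30 and 13.70 in the sufficient state against 12.79, 13.24 and 13.35 in the deficient one. These overlapped, and the difference of 0.34 ± 0.17 did not pass the test (limma adjusted p = 0.236).

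The other photosystem I subunit, PSAG, gave unlike results from its 2 probe sets. The dimmer one, Os.11860.1.S2_at, had 8.81, 8.66 and 7.95 in sufficient 9311 leaves against 6.91, 7.40 and 6.79 in deficient leaves, with no overlap. It rose by 1.44 ± 0.30 (limma adjusted p = 0.0064), 2.71-fold. In PA64s it had 8.34, 7.91 and 7.78 in the sufficient state against 7.05, 7.20 and 6.56 in the deficient state, again apart, and rose by 1.07 ± 0.30 (adjusted p = 0.041). That PA64s call was lost when any 1 of the 6 PA64s leaf arrays was left out, with differences of 0.887 to 1.204. LYP9 leaves had 8.48, 8.61 and 7.79 in the sufficient state against 7.77, 7.94 and 6.89 in the deficient one, and the difference of 0.76 ± 0.30 did not pass (adjusted p = 0.132). The brighter set, Os.11860.1.S1_at, differed by 0.27 ± 0.44 in 9311, by -0.07 ± 0.44 in LYP9 and by 0.15 ± 0.44 in PA64s, with overlapping arrays in each and adjusted p-values of 0.737, 0.942 and 0.869.

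LHCP, the antenna protein gene, had 14.20, 14.12 and 14.04 in sufficient 9311 leaves against 13.60, 13.73 and 13.23 in deficient leaves. PA64s leaves had 14.08, 14.11 and 14.08 in the sufficient state against 13.22, 13.65 and 13.07 in the deficient one, and LYP9 leaves 14.09, 14.10 and 14.07 in the sufficient state against 13.88, 13.91 and 13.56 in the deficient one. The sufficient arrays lay above the deficient ones in all 3 genotypes, and within 0.17 of each other across genotypes. LHCP rose by 0.60 ± 0.15 in 9311 (limma adjusted p = 0.0182) and by 0.78 ± 0.15 in PA64s (adjusted p = 0.00595). Without sufficient array 1 or 2 or deficient array 3 the 9311 call was lost, with differences of 0.46 to 0.71 over the single arrays left out, as it was with all 36 arrays in 1 fit (adjusted p = 0.0592). The difference of 0.31 ± 0.15 in LYP9 did not pass (adjusted p = 0.232).

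**Figure D2:**
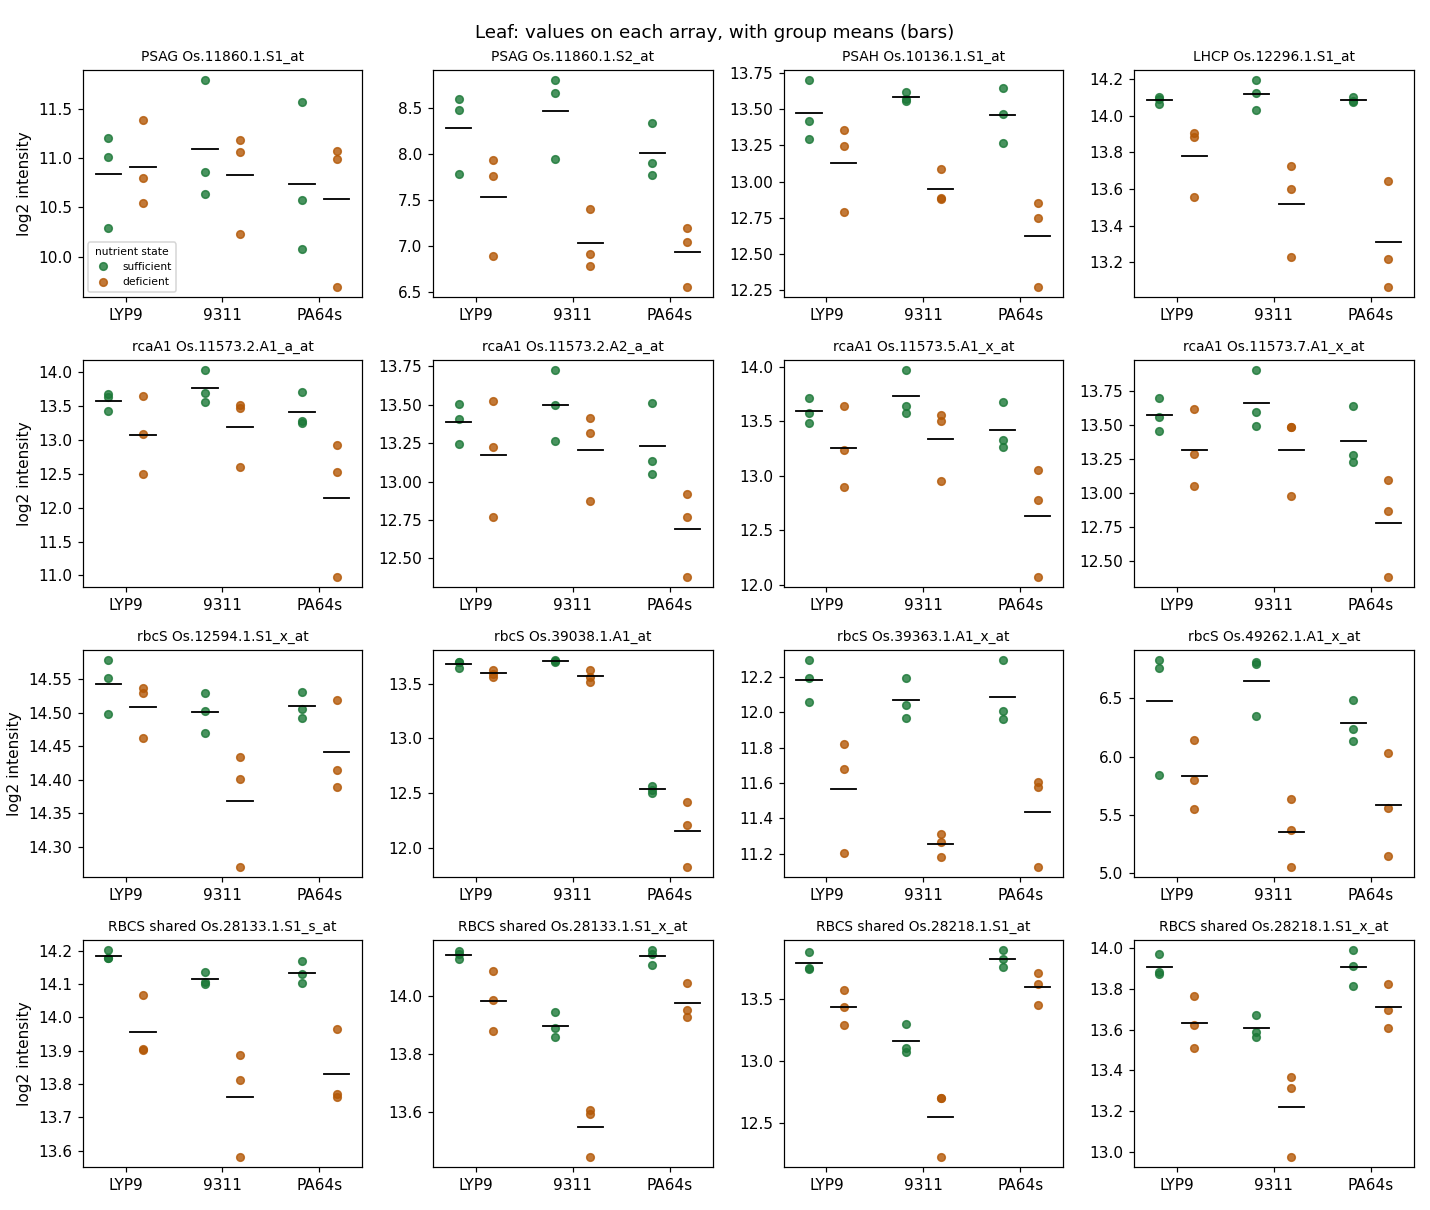
Log2 intensity on each leaf array (points) with the mean of each group of 3 arrays (bars) for the 16 probe sets tested in leaf, one panel each with its own vertical scale; nutrient-sufficient arrays are green and stand left of the deficient ones in brown, for LYP9, 9311 and PA64s. LHCP and PSAH lie higher in the sufficient state in both parents, and the deficient arrays spread more widely than the sufficient ones for LHCP and for rcaA1 in PA64s.

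Rubisco activase was measured by 4 probe sets of rcaA1, of which none passed the test in any genotype. The differences were 0.29 to 0.57 in 9311, 0.21 to 0.50 in LYP9 and 0.55 to 1.27 in PA64s, with adjusted p-values in PA64s of 0.0557 to 0.119. The set Os.11573.2.A1_a_at, with the widest difference, had 13.70, 13.25 and 13.27 in sufficient PA64s leaves against 12.52, 12.92 and 10.98 in deficient leaves. These did not overlap, and the third deficient array lay far below its fellows; the difference was 1.27, with a 95% interval of 0.428 to 2.105. Without that array it was 0.69. With all 36 arrays in 1 fit this set passed (adjusted p = 0.00793). Without the second deficient PA64s array 2 of the 4 sets passed.

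Among the small subunit probe sets, Os.39363.1.A1_x_at of rbcS was called in each genotype. It had 12.20, 11.97 and 12.04 in sufficient 9311 leaves against 11.27, 11.31 and 11.18 in deficient leaves, a rise of 0.81 ± 0.16 (limma adjusted p = 0.00465). LYP9 leaves had 12.29, 12.19 and 12.06 in the sufficient state against 11.68, 11.82 and 11.21 in the deficient state, a rise of 0.61 ± 0.16 (adjusted p = 0.0285), and PA64s leaves 12.29, 12.01 and 11.96 in the sufficient state against 11.58, 11.61 and 11.13 in the deficient one, a rise of 0.65 ± 0.16 (adjusted p = 0.0233). The states were apart in every genotype. The 9311 call held with any 1 array left out. The LYP9 call was lost without sufficient array 1 or 2 or deficient array 1 or 3, with differences of 0.43 to 0.74, and the PA64s call without sufficient array 1 or deficient array 3, with differences of 0.50 to 0.74. Quantile normalization ended the calls in LYP9 and PA64s (0.42 and 0.44, adjusted p = 0.12 and 0.11), and 1 fit of all 36 arrays ended all 3 (adjusted p = 0.067 in 9311, 0.193 in LYP9 and 0.166 in PA64s). The dim rbcS set Os.49262.1.A1_x_at rose by 1.30 ± 0.27 in 9311 (adjusted p = 0.00538), where its sufficient arrays were at 6.82, 6.35 and 6.80 and its deficient ones at 5.37, 5.63 and 5.05. The deficient mean of 5.35 lay below the filter level of 5.75, so the set was tested through the groups where it is higher. Its differences of 0.65 in LYP9 and 0.71 in PA64s did not pass.

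The 4 shared small subunit sets tested were called higher in sufficient 9311 leaves, by 0.35 (Os.28133.1.S1_s_at), 0.35 (Os.28133.1.S1_x_at), 0.61 (Os.28218.1.S1_at) and 0.39 (Os.28218.1.S1_x_at). The Os.28218.1.S1_at call held with any 1 array left out and under quantile normalization. The other 3 calls were lost without sufficient array 1 or 2 or deficient array 1 or 3, and under quantile normalization, at 0.18 to 0.20; those of Os.28133.1.S1_s_at and Os.28218.1.S1_x_at were lost without sufficient array 3 and after median centring too. All 4 sets' differences of 0.16 to 0.36 in LYP9 and of 0.16 to 0.30 in PA64s did not pass. The remaining rbcS sets, Os.12594.1.S1_x_at and Os.39038.1.A1_at, differed by 0.13 and 0.14 in 9311 leaves, by 0.03 and 0.08 in LYP9 and by 0.07 and 0.38 in PA64s, none of them called. For both sets the sign of the difference turned in some of these genotypes under quantile normalization or median centring. In PA64s the differences of the shared sets Os.28133.1.S1_x_at and Os.28218.1.S1_x_at also reached -0.03 and -0.001 under alternative processing.

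**Figure D3:**
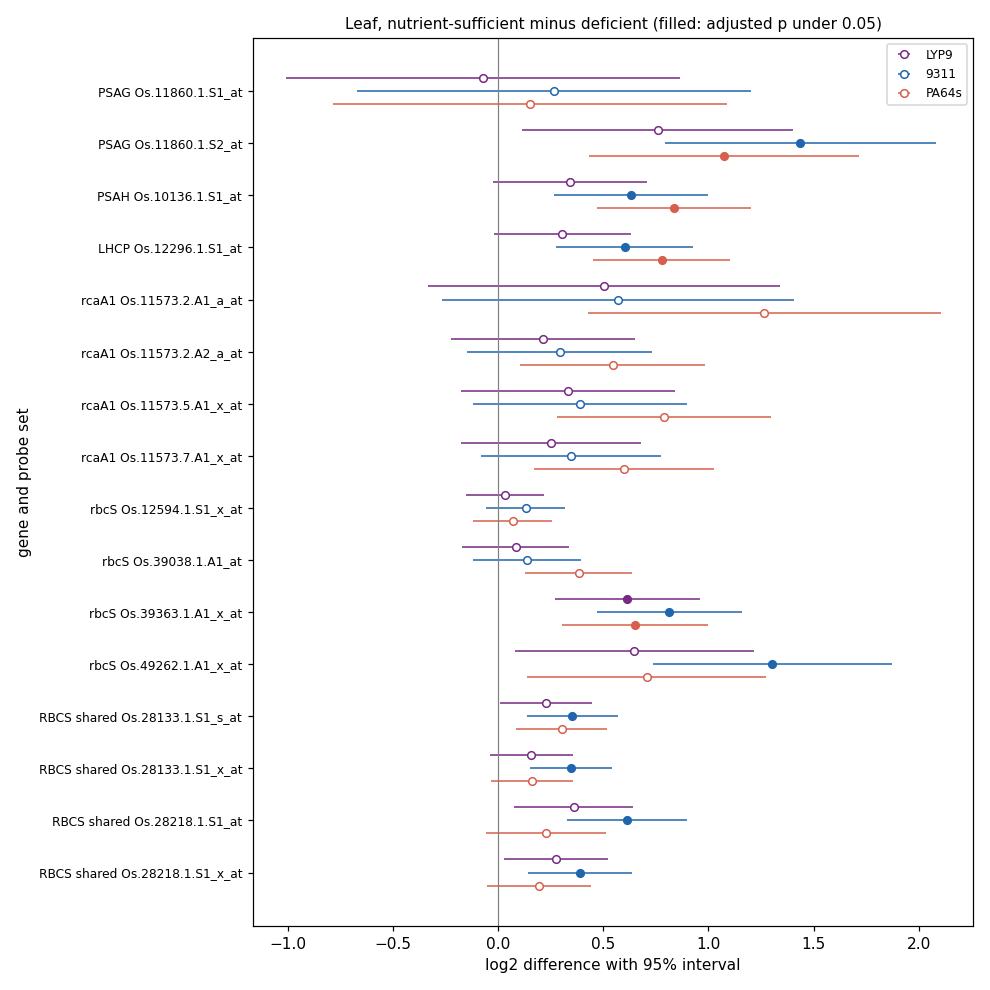
Nutrient-sufficient minus deficient difference in leaf, in log2 units (horizontal axis), with its 95% interval from limma, for the 16 probe sets tested and LYP9 (purple), 9311 (blue) and PA64s (red); filled points passed an adjusted p of 0.05. Filled points number 1 in LYP9, 9 in 9311 and 4 in PA64s, and the intervals of the 3 genotypes overlap for each probe set.

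The calls differed in number among the genotypes, but a difference between the responses was not shown. In the test of the 9311 response minus the PA64s response, limma called 0 of the 16 probe sets (0 at an unadjusted p under 0.05), where 0.0175% of all were called. The intervals were wide: for PSAG Os.11860.1.S2_at the difference between responses was 0.36 with a 95% interval of -0.55 to 1.27, and for the shared set Os.28218.1.S1_at it was 0.38 with an interval of -0.02 to 0.79. The test of the LYP9 response against the mean of the parents' responses likewise called 0 of 16 (0 at an unadjusted p under 0.05) and 0.0% of all; for LHCP the difference was -0.38 with an interval of -0.78 to 0.01.

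Single arrays moved these counts. Over the deficient leaf arrays, the one numbered 3 held the lowest value of its group for 15 of 16 probe sets in 9311, 11 in LYP9 and 12 in PA64s. It was also the lowest of its group for 46.2%, 48.0% and 41.5% of all probe sets tested, and its median intensity was the lowest of the group in each genotype. The counts of calls were 4 in 9311, 0 in LYP9 and 2 in PA64s when those 3 arrays were left out together, a setting chosen after seeing the data; the calls that held were PSAG Os.11860.1.S2_at, LHCP and the rbcS sets Os.39363.1.A1_x_at and Os.49262.1.A1_x_at in 9311, and PSAH and LHCP in PA64s. In 9311 the count was 4 without sufficient array 1 or 2, 5 without deficient array 1 and 4 without deficient array 3. In LYP9 it was 0 without sufficient array 1, deficient array 1 or deficient array 3, and in PA64s 2 without sufficient array 1 or deficient array 3. The log2 ratio of the 3′ over the 5′ cyclophilin control probe sets, a measure of RNA integrity and labelling, was -0.84, -0.84 and -0.49 in sufficient 9311 leaves against -0.16, -0.03 and -0.05 in deficient leaves. It was 0.17 on the third deficient LYP9 array and 0.38 on the third deficient PA64s array, the highest of all leaf arrays. The same ratio for GAPDH was 0.32 to 0.85 in sufficient 9311 leaves against 0.91 to 1.16 in deficient leaves, and that for EF1a -4.27 to -3.64 in sufficient against -3.33 to -2.95 in deficient leaves, both apart. The GAPDH ratio was -4.10 on the third sufficient LYP9 array, far below every other leaf array. The actin ratio overlapped, at 1.72 to 1.82 in sufficient against 1.39 to 1.83 in deficient leaves. The part of these ratios in the result was not tested.

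The genotypes differed in leaf in some of the small subunit probe sets. Over both nutrient states, 4 of 16 probe sets differed between 9311 and PA64s, 1 higher and 3 lower in 9311, where 11.9% of all probe sets differed, 5.43% higher and 6.44% lower. The median difference over the 16 was 0.17, against 0.03 over all probe sets tested. The rbcS set Os.39038.1.A1_at was the higher one. It had 13.70, 13.71 and 13.70 in sufficient and 13.56, 13.62 and 13.52 in deficient 9311 leaves, against 12.50, 12.53 and 12.57 in sufficient and 12.21, 12.42 and 11.83 in deficient PA64s leaves. All 6 arrays of 9311 lay above all 6 of PA64s, and the difference was 1.30 ± 0.08 (SE, limma adjusted p = 5.41e-09), 2.45-fold. It held with any 1 array left out, at 1.22 to 1.36. No probe sequence was used, so a difference in RNA cannot be told apart from one in how well the cultivars' transcripts match the probes. This limit holds for every comparison between genotypes given here. The 3 other rbcS sets did not show it. For them 9311 minus PA64s was -0.10 (Os.39363.1.A1_x_at), 0.07 (Os.49262.1.A1_x_at) and -0.04 (Os.12594.1.S1_x_at), with limma adjusted p = 0.648, 0.865 and 0.743. Of the 4 sets of rbcS, Os.39038.1.A1_at was thus the only one called. Os.12594.1.S1_x_at sat at the top of the measured range in leaf, where a higher value in 9311 could hardly show. Os.49262.1.A1_x_at was dim, with leaf group means of 5.35 to 6.65 around the filter level of 5.75. These sets therefore cannot decide if the difference is that of 1 set or of the gene.

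LYP9 leaves had 13.70, 13.70 and 13.64 for this set in the sufficient state and 13.57, 13.62 and 13.59 in the deficient state, the level of 9311. LYP9 minus 9311 was 0.00 ± 0.08, with a 95% interval of -0.18 to 0.18, and LYP9 minus PA64s was 1.29 ± 0.08 (limma adjusted p = 2.95e-08), the 1 of 16 called where 4.09% of all were. Both of these comparisons of LYP9 with 1 parent were added after seeing the data. Against the mean of the parents' log2 values, LYP9 was higher by 0.56 ± 0.10 in the sufficient state (adjusted p = 0.0104) and by 0.73 ± 0.10 in the deficient state (adjusted p = 0.0007), the only 1 of 16 probe sets called in either state. Of all probe sets, 0.822% differed from that mean in the sufficient state and 0.906% in the deficient state. Against the mean of the parents' intensities the values were 0.44 in the sufficient and 0.56 in the deficient state, and no test was made on that scale. Without LYP9 sufficient array 1 or 2 the count in the sufficient state was 0, and the call in the deficient state held with any 1 array left out.

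A group of 3 shared small subunit sets ran the other way between the parents. Os.28218.1.S1_at had 13.30, 13.10 and 13.07 in sufficient and 12.70, 12.70 and 12.22 in deficient 9311 leaves, against 13.82, 13.75 and 13.89 in sufficient and 13.45, 13.71 and 13.62 in deficient PA64s leaves. No 9311 array reached the lowest PA64s array, and the difference was -0.86 ± 0.09 (limma adjusted p = 4.84e-06). Os.28218.1.S1_x_at differed by -0.39 ± 0.08 and Os.28133.1.S1_x_at by -0.33 ± 0.07 (adjusted p = 0.00369 and 0.00209), while Os.28133.1.S1_s_at, at -0.05 ± 0.07, was not called.

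In the hybrid these 3 sets lay near PA64s. LYP9 minus 9311 was 0.76, 0.36 and 0.34, all called, as 3 of 16 probe sets against 3.3% of all, and LYP9 minus PA64s was -0.10, -0.04 and 0.01, none called. The call of Os.28218.1.S1_x_at against 9311 was lost without 9311 sufficient array 2 or 3, 9311 deficient array 3, LYP9 sufficient array 1 or LYP9 deficient array 2, with differences of 0.30 to 0.39. With all 36 arrays in 1 fit, Os.28133.1.S1_x_at was called neither between the parents (adjusted p = 0.154) nor against 9311 (adjusted p = 0.349). For Os.28218.1.S1_at LYP9 had 13.88, 13.74 and 13.75 in sufficient and 13.29, 13.57 and 13.43 in deficient leaves. In each of the 4 probe sets that differed between the parents, LYP9 was called different from the lower parent and not from the higher one, within these limits. The 3 shared sets read the same 3 loci, so they are not separate cases. Against the mean of the parents' log2 values they were 0.12 to 0.36 higher and not called in either state. For Os.28218.1.S1_at this was 0.30 in the sufficient and 0.36 in the deficient state (limma adjusted p = 0.987 and 0.367). Which locus of the 3 carries the difference in the shared sets cannot be told from these probe sets.

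**Figure D4:**
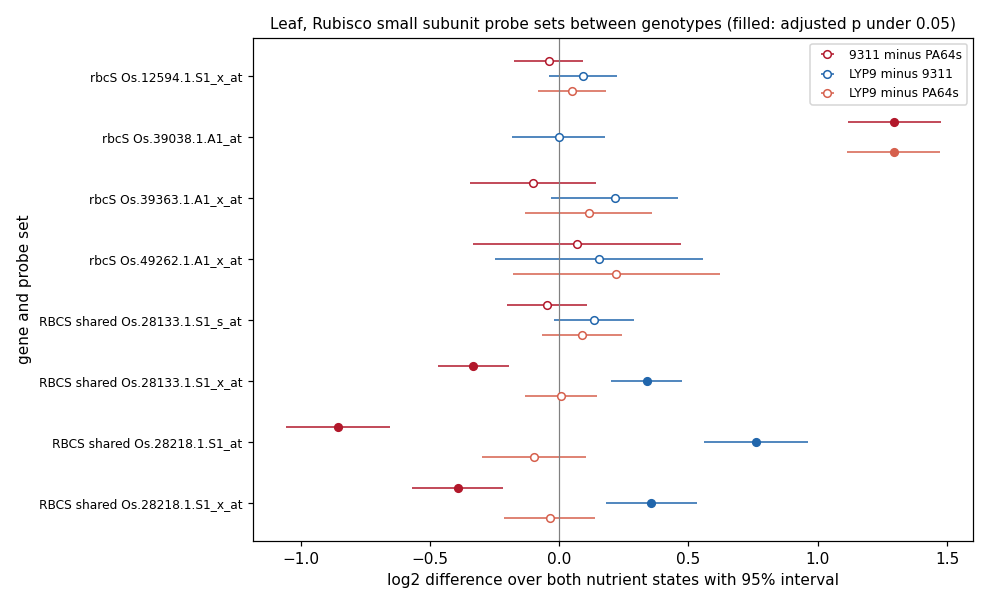
Differences between genotypes over both nutrient states in leaf, in log2 units (horizontal axis) with 95% intervals, for the 8 small subunit probe sets tested: 9311 minus PA64s (dark red), LYP9 minus 9311 (blue) and LYP9 minus PA64s (light red), filled where the adjusted p was under 0.05. For Os.39038.1.A1_at the differences to PA64s are 1.30 and 1.29 and LYP9 minus 9311 lies at 0, while for 3 shared sets 9311 lies below both others.

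The photosystem and activase probe sets did not pass the test between the parents in leaf. The 4 rcaA1 sets were 0.39 to 0.70 higher in 9311 (adjusted p of 0.0676 to 0.127), PSAH 0.22 (95% interval -0.03 to 0.48) and LHCP 0.12 (interval -0.11 to 0.35). The number called was 7 without the second deficient PA64s array, when 3 rcaA1 sets joined. In deficient LYP9 leaves the 16 probe sets had a median of 0.27 above the mean of the parents, against 0.04 over all probe sets, and in sufficient leaves 0.04 against 0.04.

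In root none of the 8 probe sets tested passed the threshold for the nutrient state, and PSAH and RBCS-A had no probe set bright enough to test. Limma called 0 of 8 probe sets in 9311, LYP9 and PA64s (1, 0 and 1 at an unadjusted p under 0.05), where 5.89%, 3.46% and 3.33% of all probe sets were called. The lone probe set under that level, in both parents, was PSAG Os.11860.1.S1_at. It had 6.12, 5.41 and 6.14 in sufficient 9311 roots against 6.73, 6.58 and 6.36 in deficient roots, and 4.92, 5.58 and 5.40 in sufficient PA64s roots against 6.08, 6.01 and 5.85 in deficient roots. The deficient arrays lay above the sufficient ones in both, the reverse of the leaf sets that rose, with differences of -0.67 ± 0.22 and -0.68 ± 0.22 (adjusted p = 0.0877 and 0.124). The sufficient PA64s mean of 5.30 lay below the root filter level of 5.70, so that group was tested through those where the set is higher. Without the third sufficient 9311 array LHCP was called in 9311 roots, a count of 1.

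Between the parents, 4 of 8 probe sets differed in root, 3 higher and 1 lower in 9311, where 13.3% of all probe sets differed, 6.15% higher and 7.19% lower. The rbcS set Os.39038.1.A1_at, higher in 9311 leaf, was higher in 9311 root too. It had 7.71, 7.42 and 7.29 in sufficient and 7.80, 7.22 and 6.94 in deficient 9311 roots, against 6.75, 6.36 and 6.41 in sufficient and 6.67, 6.49 and 6.77 in deficient PA64s roots. The 6 arrays of 9311 all lay above the 6 of PA64s, by 0.82 ± 0.14 on average (limma adjusted p = 0.0006).

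The other rbcS set, Os.12594.1.S1_x_at, sat at the top of the measured range in leaf and did not differ past the threshold there. It had 8.42, 8.20 and 7.92 in sufficient and 8.326, 8.001 and 7.501 in deficient 9311 roots, against 6.95, 6.32 and 6.57 in sufficient and 6.83, 6.35 and 7.47 in deficient PA64s roots. The genotypes were again apart, if narrowly at one array each, and the difference was 1.31 ± 0.22 (limma adjusted p = 0.0004). Only 1 of the rcaA1 sets, Os.11573.5.A1_x_at, was called, and it was lower in 9311. It had 5.77, 4.94 and 4.76 in sufficient and 5.05, 4.84 and 4.33 in deficient 9311 roots, against 6.42, 5.63 and 6.47 in sufficient and 6.64, 6.54 and 6.41 in deficient PA64s roots, a difference of -1.40 ± 0.19 (adjusted p = 6.83e-05). Its root mean of 5.71 barely passed the filter level of 5.70, and the 9311 group means of 5.15 and 4.74 lay below it, so it was tested through the genotypes where it is higher. Without 1 array it was still tested in 7 of 12 fits, and called in those. A second activase set, Os.11573.2.A1_a_at, was 0.32 ± 0.11 higher in 9311 and not called (adjusted p = 0.0693), so the 2 sets of this gene tested in root differed in sign.

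PSAG Os.11860.1.S1_at was 0.59 ± 0.16 higher in 9311 roots (limma adjusted p = 0.0219), a call lost without the first sufficient or the first deficient 9311 root array. Its mean of 5.30 in sufficient PA64s roots lay below the filter level of 5.70, so there it was tested through the groups where it is higher. The number called between the parents was 6 without the third sufficient 9311 array. Against the mean of the parents, limma called 0 of 8 probe sets in LYP9 roots in either state (0 at an unadjusted p under 0.05), where 0.72% and 0.513% of all probe sets were called. Against 9311 alone, rcaA1 Os.11573.5.A1_x_at was 0.88 ± 0.19 higher in LYP9 (adjusted p = 0.0156), the 1 of 8 called where 2.95% of all were, a call lost without the second sufficient 9311 array, and against PA64s it was -0.53 ± 0.19 (adjusted p = 0.281). All these root signals were small beside the leaf signals of the same probe sets.

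**Figure D5:**
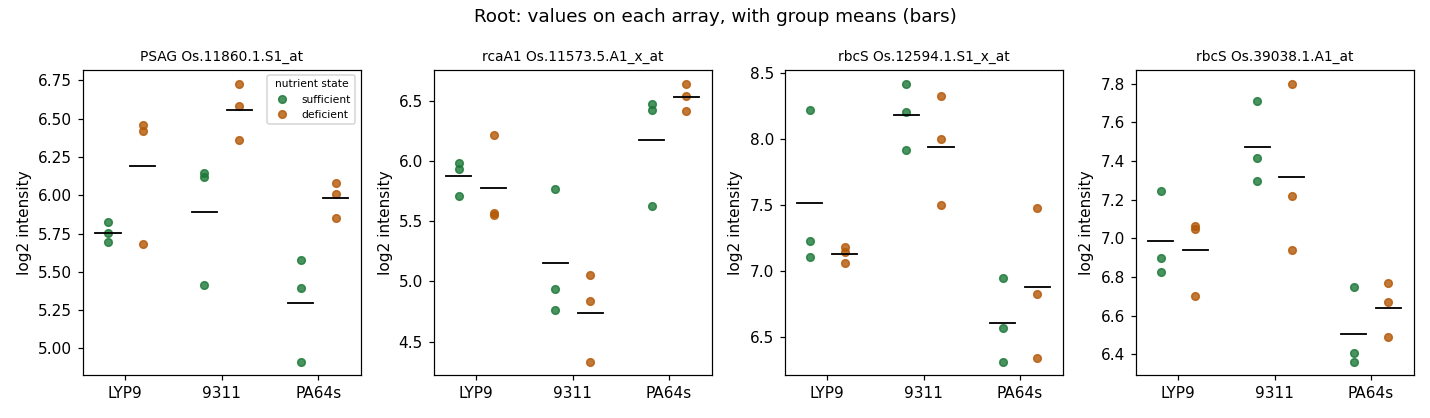
Log2 intensity on each root array (points) with the mean of each group of 3 arrays (bars) for the 4 probe sets called between 9311 and PA64s in root, each panel with its own vertical scale; nutrient-sufficient arrays are green and deficient arrays brown, for LYP9, 9311 and PA64s. Both rbcS sets lie higher in 9311 than in PA64s, and the rcaA1 set lies lower.

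Of other genes of the same processes, only antenna genes were called in leaf for the nutrient state, and only in the parents. Of 2 further antenna genes, CAB2R, a chlorophyll a/b-binding protein gene, rose by 0.35 ± 0.10 in sufficient 9311 leaves (limma adjusted p = 0.0382) and by 0.45 ± 0.10 in PA64s leaves (adjusted p = 0.0158). RCABP69, another such gene, rose by 0.43 ± 0.11 in PA64s (adjusted p = 0.0251), while its 0.34 in 9311 missed the threshold (adjusted p = 0.0527), and neither was called in LYP9. CAB2R has 2 probe sets, of which the brighter was used. Calls of these and the other list genes, in leaf or root, were not followed under the alternatives or with arrays left out. Of 3 Calvin cycle genes (ALDP, FBPase and RPE) and 6 of electron transport (petC, PETE, LFNR1, 2 named FNR and ndhM), limma called 0 in any genotype's leaves for the nutrient state; their median differences in 9311 were 0.26 and 0.10. Over all probe sets tested, 7.96% rose in 9311 leaves, 6.2% in LYP9 and 5.01% in PA64s. With so few genes, 0 calls is near these shares and tells little.

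In root, by contrast, 2 of the 5 genes tested from the electron transport list rose in every genotype, where 3.25% of all probe sets rose in 9311 roots, 2.1% in LYP9 and 1.74% in PA64s. The gene petC, which encodes the Rieske iron-sulfur protein of the cytochrome b6f complex, rose by 1.73 ± 0.22 in sufficient 9311 roots, by 1.53 ± 0.22 in LYP9 roots and by 1.31 ± 0.22 in PA64s roots (limma adjusted p = 0.00042, 0.0011 and 0.0031). Its log2 values ran from 5.22 to 7.88 over the root arrays, so the lowest lay below the root filter level. The group means of petC are not given here, so it may have been tested partly through the groups where it is higher. This limit holds for its difference between the parents too. FNR (LOC4334338), a ferredoxin-NADP reductase gene, rose by 0.86, 0.89 and 1.2 (adjusted p = 0.0148, 0.0137 and 0.0016). This FNR was lower in leaf than in root, at -0.85 for leaf minus root, unlike the 5 other electron transport genes. It thus lacked the leaf pattern of the photosynthesis genes, and its rise in root is not read as one of photosynthesis. The other FNR (LOC4342399) was close in both tissues, at 9.67 to 10.5 over the leaf arrays and 9.40 to 10.0 over the root arrays. Between the parents, petC was 0.55 ± 0.15 higher in 9311 roots (adjusted p = 0.0255), and the other FNR (LOC4342399) was -0.30 ± 0.08 in 9311 minus PA64s leaves (adjusted p = 0.019).

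The genes whose leaf pattern was most like the mean of the 16 probe sets, by Pearson correlation over the 18 leaf arrays among 2072 named genes, were EX2 (0.96), CHLH (0.95), ADI1 (0.95), SS2 (0.95) and GLK1 (0.94). CHLH encodes a subunit of magnesium chelatase, an enzyme of chlorophyll synthesis, and GLK1 a transcription factor known for its role in chloroplast development. In root, among 2194 named genes and against the mean of 8 probe sets, they were ADI1 (0.83), PDC (0.81), RCABP69 (0.80), HSP18.0 (0.74) and hb3 (0.73). The arrays share groups, so these values describe group differences and array differences together.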

How the data were processed

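The samples were 36 RNA preparations, each on 1 Affymetrix rice array. The authors deposited linear array intensities, 1 value per probe set and array, whose scaling no source names. RMA and affy stand in the submitters' processing notes, without role or version. Each intensity was taken to log2, and arrays were not scaled again. Control and reporter probe sets, 187 in all, were dropped. In the platform annotation 22436 of the rest carry 1 gene, 95 several, and 34663 are not listed; all 6 genes were found by ID in the reference gene table. No sequence or position was used.

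Leaf and root were fitted apart, 18 arrays each, in R 4.3.3 with limma 3.58.1 (lmFit and eBayes, 2-sided), a mean per group, on the brightest 60% of probe sets over these arrays (mean log2 above 5.75 in leaf and 5.70 in root). Residual degrees of freedom were 12. Leaf minus root used all 36 arrays. Calls had a Benjamini-Hochberg adjusted p under 0.05 over all probe sets tested. The fits were tested on simulated data. No source used here gives a batch or scan date, and 3 arrays per group limit the precision. Every probe set of the 6 genes was described; of the pathway lists, up to 3 called genes per direction and comparison, with 1 probe set per gene, and by likeness 5 genes per tissue. The genes and lists were chosen with earlier results of these data known. Alternatives were quantile normalization, median centring, no filter or an upper 40% filter, a trended robust variance, 1 fit of all arrays, a pseudocount of 16, the replicate number as a block and leaving out each array.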

Additional observations from a re-analysis of the deposited data

How the results depend on the processing

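No call on these probe sets turned in direction under any alternative. The number called in 9311 leaf for the nutrient state, 9 as reported, was 5 after quantile normalization and 4 when all 36 arrays were fitted together. In LYP9 leaf, with 1 called, these gave 0 and 2. Between the parents in root the upper 40% filter left 2 probe sets, both called, against 4 of 8, since fewer were tested; the causes of the other shifts were not tested. Leaving out each array in turn gave counts of 4 to 9 in 9311 leaf, 0 to 1 in LYP9 leaf, 2 to 6 in PA64s leaf, 4 to 7 between the parents in leaf, 0 to 1 for LYP9 against the parents' mean in sufficient leaf, 3 to 6 between the parents in root and 0 to 1 in 9311 root. Without the third deficient array of all 3 genotypes, chosen after seeing the data, the leaf counts were 4 in 9311, 0 in LYP9 and 2 in PA64s. Over all probe sets, PA64s leaf had 2652 calls as reported, 4072 with all arrays in 1 fit and 4208 with the block; the test of 9311 against PA64s responses in leaf had 6 as reported, 11 with the trended variance, 25 with all arrays in 1 fit and 10 with the block, and in root 3, against 21 with all arrays in 1 fit, 5 with the block and 0 with the upper 40% filter. The test of LYP9 against the parents' mean response in leaf had 0, and 1 with all arrays in 1 fit. The upper 40% filter gave 753, 902, 631 and 502 calls for LYP9 minus 9311 and minus PA64s in leaf and then in root, against 1133, 1405, 1014 and 858, and 159 and 110 against 247 and 176 for LYP9 against the parents' mean in sufficient and deficient root; no filter gave 41905 calls of leaf against root, against 27932.

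The labels do not say that replicate numbers pair the samples, and not every pair of same-numbered arrays of the 2 nutrient states deviated together. In leaf the correlations were 0.30 to 0.38 for number 1, 0.28 to 0.47 for number 3 and -0.21 to 0.01 for number 2, so numbers 1 and 3 did deviate together in all 3 genotypes. In root they ran from -0.18 to 0.51. The arrays that correlated best with their own number were 11 of 18 in leaf and 7 of 18 in root, a hint from the data and not from the design. A barrel was either fertilised or not, so the 2 states shared none. Samples of different genotypes or tissues in the same state may have come from the same barrel. The labels do not say so, and such sharing was not checked. With the number as a block, the counts were 2 in LYP9 leaf, 9 in PA64s leaf, where all 4 rcaA1 sets joined, and 8 between the parents in leaf.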
